A study of Mus musculus with 6 samples.

Results

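The 9 genes described here carry endothelin and GDNF signalling: the endothelin ligands *Edn1* and *Edn3*, their receptors *Ednra* and *Ednrb*, the converting enzyme *Ece1*, the ligand *Gdnf*, its co-receptors *Gfra1* and *Gfra2*, and the receptor tyrosine kinase *Ret*. They are 9 of the 25043 genes to which the RefSeq transcripts of the expression table could be assigned. The genes were chosen with earlier results of these data known, comparisons of the genotypes among them, and each is represented by the transcript selected on the highest mean in the same table, so the levels below are a description and carry no test. RNA-Seq was carried out on total RNA of primary mouse embryonic fibroblasts (MEFs) at a passage below 8, with 3 wild type (WT) libraries and 3 libraries of cells lacking *Anp32e* (*Anp32e* null). ANP32E is a chaperone that takes the histone variant H2A.Z out of nucleosomes, and the question of the experiment was what its loss does to gene expression.

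The measured value is the mean normalized count, which is the authors' mean over all 6 libraries of the reads of a transcript divided by a size factor for library depth. It pools both genotypes, so WT and *Anp32e* null cells were not compared and no SD within a genotype can be given. A pooled mean may describe neither genotype, and the order of the genes may differ between them. The targeted gene itself, *Anp32e* on chromosome 3, had a pooled mean of 2190, which does not check the genotype labels of single libraries. A long transcript collects more reads than a short one. Levels of different genes are therefore compared as mean normalized count per kilobase (kb) of spliced transcript, except where means are named. The cutoff at a mean of 10 and the summed means of lists are not divided by length. For *Pspn*, *Gfra4* and *Gas1*, which are set beside the members, the annotated transcript holds at most 3 bases outside the coding part, so their levels per kb are too high by an unknown factor. In RNA from a whole culture, fewer cells of a type and less RNA per cell cannot be told apart.

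Endothelins are short peptides that are released from larger precursors by the membrane protease ECE1 and act on the G protein-coupled receptors EDNRA and EDNRB. Signalling from EDN1 to EDNRA patterns the neural crest cells of the pharyngeal arches, while EDN3 and EDNRB are needed by the crest cells that become melanocytes and enteric neurons. GDNF is bound by GFRA1, a co-receptor held in the membrane by a lipid anchor, and the complex activates RET, which guides enteric crest cells along the gut and the ureteric bud into the kidney. Related ligands prefer other co-receptors: NRTN binds GFRA2, ARTN binds GFRA3, PSPN binds GFRA4 and GDF15 binds GFRAL.

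Promoter sequence is available from RefSeq (GRCm38.p6) for 7 of the 9 genes, and it lets the ligand gene *Edn3*, at 0, be read beside genes with transcripts in these cells. The 250 bases before the transcription start of 5 of them, chosen since no annotated exon lies within, are given 5′ to 3′ on the strand of the gene. Capitals mark the letters GGGCGG (GC box), CCAAT or TATAAA on either strand, none of which overlap here.
*Edn1* chr13:42301226-42301475 (+): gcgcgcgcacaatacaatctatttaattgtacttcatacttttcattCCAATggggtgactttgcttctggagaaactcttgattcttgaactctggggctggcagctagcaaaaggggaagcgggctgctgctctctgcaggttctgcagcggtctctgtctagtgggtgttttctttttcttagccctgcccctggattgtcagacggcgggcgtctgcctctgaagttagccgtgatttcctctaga
*Edn3* chr2:174760369-174760618 (+): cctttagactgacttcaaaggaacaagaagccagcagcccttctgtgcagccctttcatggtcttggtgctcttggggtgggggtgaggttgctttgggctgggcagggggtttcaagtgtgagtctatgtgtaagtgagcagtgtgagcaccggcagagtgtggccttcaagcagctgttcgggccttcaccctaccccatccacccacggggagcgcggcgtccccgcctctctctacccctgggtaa
*Ednrb* chr14:103843702-103843951 (-): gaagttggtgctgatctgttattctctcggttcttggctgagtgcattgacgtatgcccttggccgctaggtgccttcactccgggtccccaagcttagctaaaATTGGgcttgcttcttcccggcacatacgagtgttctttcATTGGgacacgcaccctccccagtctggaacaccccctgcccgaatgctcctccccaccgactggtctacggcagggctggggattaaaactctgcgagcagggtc
*Ece1* chr4:137861987-137862236 (+): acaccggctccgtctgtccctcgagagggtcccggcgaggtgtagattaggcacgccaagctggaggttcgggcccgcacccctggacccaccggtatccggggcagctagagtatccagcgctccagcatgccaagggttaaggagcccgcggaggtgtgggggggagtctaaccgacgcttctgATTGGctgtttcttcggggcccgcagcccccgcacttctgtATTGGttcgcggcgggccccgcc
*Gdnf* chr15:7809798-7810047 (+): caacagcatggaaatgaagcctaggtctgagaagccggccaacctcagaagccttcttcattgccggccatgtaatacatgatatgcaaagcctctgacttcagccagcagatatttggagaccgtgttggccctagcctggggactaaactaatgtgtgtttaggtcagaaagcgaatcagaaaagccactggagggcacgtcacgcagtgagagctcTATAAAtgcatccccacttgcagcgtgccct

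The *Edn3* window held none of these 3 motifs, and neither did that of *Ednra*, which had reads and is not printed. CCAAT occurred once upstream of *Edn1* and at 2 places each upstream of *Ednrb* and *Ece1*. The *Ednrb* window lies within the annotated gene, since the transcript NM_001136061, with a mean of 122, starts upstream of it. The *Gdnf* window held TATAAA, with its first base 31 bases before the start that RefSeq gives, which lies 798 bases before that of the GENCODE transcript used for length. Of all 32841 promoter windows of this length, 33.9% held CCAAT, 32.7% GGGCGG and 12.4% TATAAA. A match is a string of letters and says nothing on binding in these cells, and the absence of a match says only that these letters are not in the window. The windows also differed in CpG dinucleotides. *Ece1* had 22 in its 250 bases, *Ednrb* 11, *Edn1* 9, and *Edn3* and *Gdnf* 7 each, beside a median of 6 over all windows. Of the windows not printed, that of *Gfra1* had 10 CpG and a CCAAT, and that of *Ednra* had 6 CpG. For 11128 genes with a mean of at least 10 the median was 17 CpG, and for 4189 genes at 0 it was 2, taking for each gene its window with the most. *Gdnf* has another window, at chr15:7813477-7813726, with 14 CpG and a CCAAT, and *Ece1* has others, of which the richest had 23 CpG and GGGCGG at 2 places, and a further window had it at 1.

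Levels of the 9 genes extended from a mean of 0 to one of 3588. A mean of at least 10 was reached by 7 of them, or 77.8%, compared with 56.9% of all genes in the table. *Gfra2* had reads but a mean under 10, and *Edn3* was at 0. Only *Ece1*, *Gfra1* and *Edn1* lay above the median of 148 mean normalized counts per kb among the 18067 autosomal genes with reads and a known length. Among genes with a mean of at least 10 this held for *Ece1* alone, at percentile 66.6, with *Gfra1* at 49.0 and *Edn1* at 47.3. In that smaller set, which lowers the percentile of any gene, *Gdnf* was at 25.8, *Ednrb* at 15.4, *Ret* at 11.9 and *Ednra* at 4.98.

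**Figure D1:**
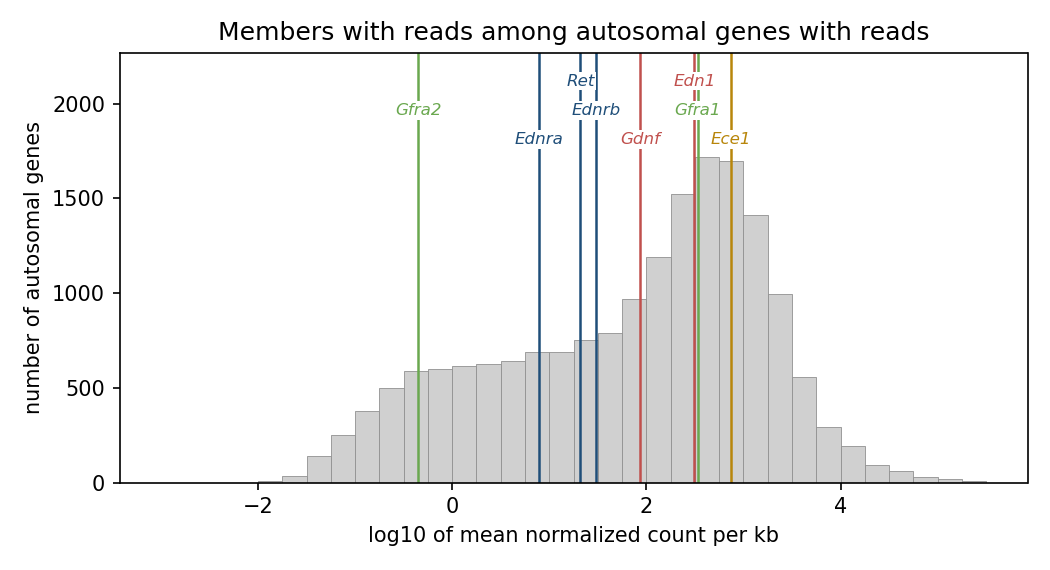
Number of autosomal genes with reads (bars) by log10 of the mean normalized count per kb, with the 8 members that had reads drawn as vertical lines (red ligands, blue receptors, green co-receptors, brown peptidase). *Ece1*, *Gfra1* and *Edn1* stand within the main peak, *Gdnf* on its lower shoulder, and *Ednrb*, *Ret*, *Ednra* and *Gfra2* in the low tail. 4 ranked genes fall outside the plotted range.

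Among the endothelin ligands, *Edn1* had the highest level per kb. *Edn1* (gene at chr13:42301476-42307990, represented by NM_010104 with 5 exons) had a mean normalized count of 666, or 311 per kb, which was above 60.6% of autosomal genes with reads. *Edn2*, which encodes the remaining endothelin, had a mean of 9.50, and its level per kb was lower than that of *Edn1* by 47.9-fold. Its 54 reads fell in 3 of the 6 libraries. No read was assigned to *Edn3* (gene at chr2:174760619-174784042, represented by NM_007903 with 5 exons). A count of 0 allows up to 3 reads over all 6 libraries (a one-sided limit, while the intervals below are two-sided), and a mean of 0.550 if these fell in the library where a read weighs most. This floor and the intervals below cover counting error only, since the reads of a library are not independent molecules.

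Both endothelin receptors were low, and *Ednrb* was the higher of the pair. *Ednrb* (gene at chr14:103814615-103844508, represented by NM_007904), the receptor that takes all endothelins with similar affinity, had a mean of 122 and a level of 30.6 per kb. *Ednra* (gene at chr8:77663029-77724452, represented by NM_010332 with 8 exons), the receptor that prefers EDN1, had a mean of 28.6 and a level of 7.89 per kb. Per kb, *Ednrb* was thus 3.87-fold above *Ednra*, with 95% Poisson intervals of 28.3 to 33.0 for the level of *Ednrb* and 6.71 to 9.23 for that of *Ednra*. *Edn1* itself exceeded *Ednrb* by 10.2-fold and *Ednra* by 39.4-fold per kb.

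The mean of *Ednra* is low enough to be taken apart into whole reads. Each read adds a fixed step to a mean, the size of which depends only on the library, and the 6 smallest means in the table are the steps of single reads, from 0.147 to 0.183. For *Ednra* a single set of whole reads in 6 libraries gives the printed mean: 36, 36, 23, 34, 24 and 21 reads in the libraries numbered 1 to 6 by increasing step, 174 in all. The libraries carry no label in this procedure and cannot be assigned to WT or *Anp32e* null. Divided by the size factors, the normalized counts of *Ednra* were 31.8, 34.2, 22.4, 34.4, 25.7 and 23.1, so the highest library was 1.54-fold above the lowest. Reads of the receptor were thus present in each of the 6 libraries.

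The peptidase *Ece1* was the most abundant of the 9 transcripts. *Ece1* (gene at chr4:137862237-137965229, represented by NM_199307 with 20 exons) had a mean of 3588 and a level of 745 per kb, above 75.0% of autosomal genes with reads and 5.02-fold above their median. Its homologue *Ece2* had a mean of 269, and *Ece1* was 8.72-fold higher per kb. Neprilysin, the product of *Mme* that degrades endothelins and other peptides, had a mean of 1172 and a level of 350 per kb, or 146 with its longest annotated transcript. *Ecel1*, a related protease of neurons, had a mean of 3.83, and *Kel*, a protease of red blood cells, was at 0.

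**Figure D2:**
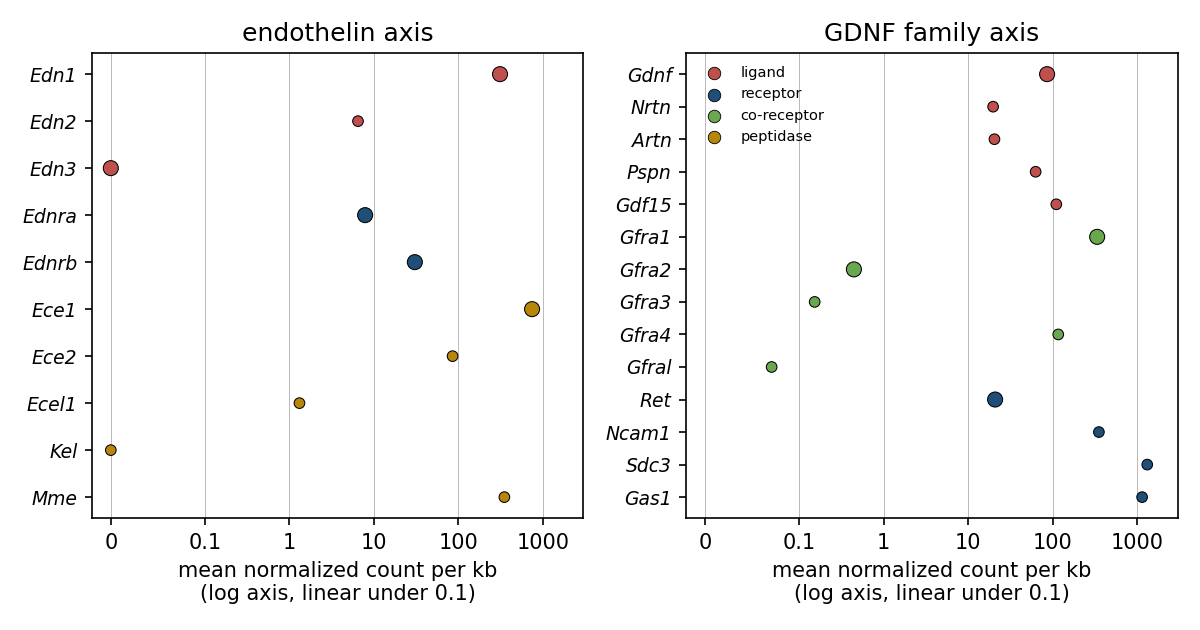
Mean normalized count per kb (log axis, linear under 0.1) of the 10 genes of the endothelin axis (left) and the 14 genes of the GDNF family axis (right), coloured by role, with large points for the 9 members. *Edn1*, *Ece1* and *Mme* lead the left panel and *Sdc3*, *Gas1*, *Ncam1* and *Gfra1* the right, while *Edn3* and *Kel* are at 0.

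In the GDNF family, *Gdnf* was above *Nrtn* and *Artn* per kb, and below the more distant *Gdf15*. *Gdnf* (gene at chr15:7810048-7837580, represented by NM_010275) had a mean of 316 and a level of 86.0 per kb, above 44.3% of autosomal genes with reads. The other GDNF family ligands had means of 20.2 (*Nrtn*), 44.6 (*Artn*) and 29.8 (*Pspn*). Their transcripts are shorter, so that per kb *Gdnf* stood 4.35-fold above *Nrtn* and 4.19-fold above *Artn*. Its ratio to *Pspn* was 1.37, a value that rests on the coding length of *Pspn*. *Gdf15*, a stress-induced ligand, had a mean of 171 and, at 111 per kb, a higher level per length than *Gdnf*. Whole reads could be recovered for the 3 low ligands, and each had reads in all 6 libraries. Normalized counts per library ranged from 10.6 to 37.4 for *Nrtn* (median 18.3), from 28.5 to 68.2 for *Artn* (median 41.5) and from 17.7 to 47.7 for *Pspn* (median 25.7). These spreads, of 3.53-fold, 2.39-fold and 2.70-fold between lowest and highest library, are over libraries of both genotypes and are not a replicate error.

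Among co-receptors, *Gfra1* was at a higher level than the rest of the family. *Gfra1* (gene at chr19:58235581-58455946, represented by NR_104342) had a mean of 1561 and a level of 336 per kb, above 61.9% of autosomal genes with reads. NR_104342 is a noncoding RefSeq transcript, and the coding NM_010279, paired with the same length, had a mean of 1560. The level per kb of *Gfra1* was 2.89-fold that of *Gfra4* (mean 106), the receptor for PSPN, and 5.69-fold with the longest annotated transcript of each gene. *Gfra2* (gene at chr14:70890107-70979840, represented by NM_001302094 with 9 exons), the receptor for NRTN, had a mean of 1.55, which corresponds to 10 reads in all: 5 reads in each of 2 libraries and 0 in the other 4. The 95% Poisson interval of these 10 reads is 4.80 to 18.4. *Gfra3* had 2 reads and *Gfral* 1 read over all libraries, below the floor of 3. Of the 4 preferred pairs of GDNF family ligand and GFRA co-receptor, GDNF with GFRA1 and PSPN with GFRA4 had both transcripts at a mean of at least 10, while for NRTN and ARTN the ligand but not the preferred co-receptor reached it.

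**Figure D3:**
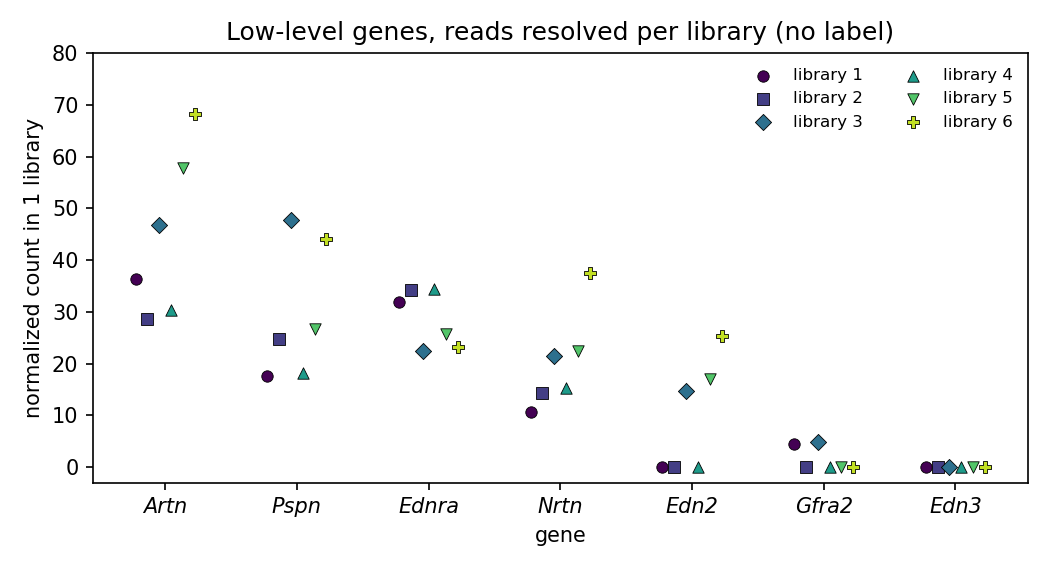
Normalized count in each of the 6 libraries (symbols, numbered by increasing step of a read and without genotype label) for 7 genes whose means could be resolved into whole reads. *Ednra* lies between 22.4 and 34.4 in every library, *Edn2* has reads in 3 libraries, *Gfra2* in 2 and *Edn3* in none.

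The signalling receptor *Ret* was low beside its co-receptor. *Ret* (gene at chr6:118151748-118197744, represented by NM_001080780 with 19 exons) had a mean of 93.9 and a level of 20.9 per kb, above 32.9% of autosomal genes with reads. *Gfra1* exceeded *Ret* by 16.1-fold and *Gdnf* exceeded it by 4.12-fold per kb. Receptors that can bind GDNF without RET were higher. The neural cell adhesion molecule gene *Ncam1* had a mean of 2134, 16.9-fold above *Ret* per kb, and the heparan sulfate proteoglycan gene *Sdc3* had a mean of 6542, 63.0-fold above *Ret*. *Gas1*, whose product resembles the GFRA proteins and can bind RET, had a mean of 1322, lower than that of *Gfra1*. Per kb it was 3.40-fold above *Gfra1* over its coding part and 1.33-fold above with the longest annotated transcripts, a length chosen after seeing the data.

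Ordered by level per kb, the 9 genes ran *Ece1*, *Gfra1*, *Edn1*, *Gdnf*, *Ednrb*, *Ret*, *Ednra*, *Gfra2* and *Edn3*, the same order as by the mean itself. The closest neighbours were *Gfra1* and *Edn1*, at 1.08-fold, and *Ednrb* and *Ret*, at 1.46-fold. The 95% Poisson intervals, which leave out all spread between libraries, were 329 to 344 for *Gfra1*, 301 to 321 for *Edn1* and 19.1 to 22.8 for *Ret*. Whether either difference exceeds the spread between libraries cannot be told from a pooled mean, and *Ednra*, *Nrtn*, *Artn* and *Pspn* differed by 1.54-fold to 3.53-fold between their lowest and highest library. The order of *Gfra1* and *Edn1* in particular rests on a small difference and on the annotated lengths of 4641 and 2139 bases.

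**Figure D4:**
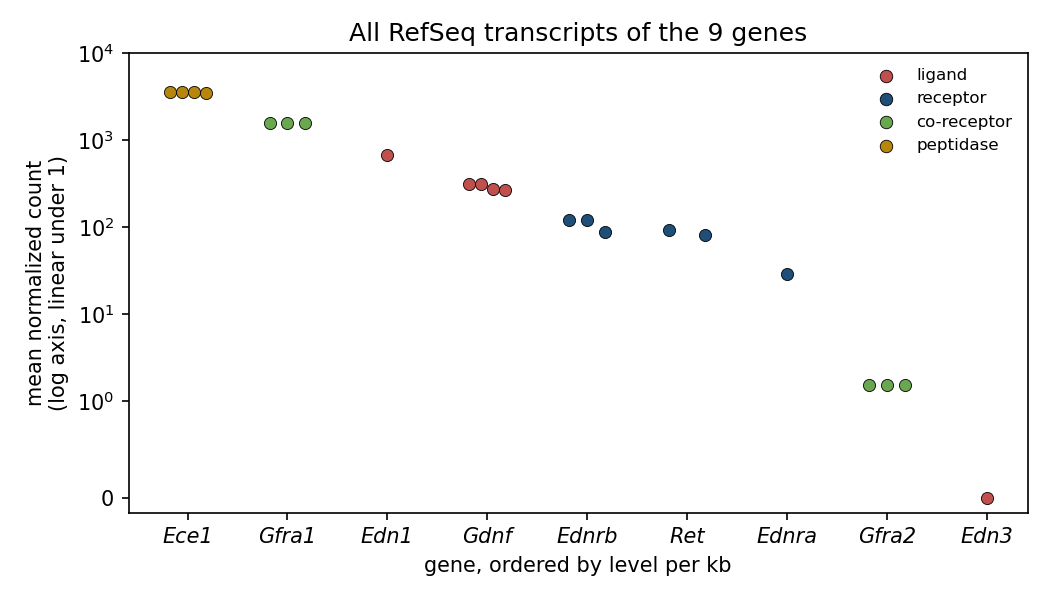
Mean normalized count (log axis, linear under 1) of all 22 RefSeq transcripts of the 9 genes, coloured by role. As a share of the highest mean, the widest gap within a gene is that of *Ednrb*, with NM_001276296 at 87.9 against 122 for NM_007904.

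The 9 genes had 22 transcripts in the table, and for 2 of the 5 members with several transcripts and a mean of at least 10 the lowest mean was at least 90% of the highest. The 4 transcripts of *Ece1* lay between 3513 and 3588, the 3 of *Gfra1* between 1560 and 1561, and the 3 of *Gfra2* were identical. Across the table, the lowest transcript reached at least 90% of the highest in 74.3% of 6324 genes with several transcripts and a mean of at least 10. Means of transcripts repeat the reads of shared exons, are not specific to an isoform, and were not added up. Gaps that were wider as a share of the highest mean were seen for the other 3 members. *Gdnf* had 316 and 315 for NM_010275 and NM_001301332 but 271 and 265 for NM_001301333 and NM_001301357. *Ret* had 93.9 for NM_001080780 and 80.9 for NM_009050. These forms share 3190 exonic bases, with 1307 bases only in the first and 2266 only in the second, the latter at chr6:118151745-118154010. *Ednrb* had 122 for NM_007904 and 87.9 for NM_001276296, whose 2669 annotated bases all lie within the first, which has 1320 more.

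Reads of overlapping genes could add to a member's count. In the GENCODE annotation the representative *Gfra1* transcript shares 416 exonic bases, or 8.96% of its length, with *Gm16277* on the opposite strand, *Ednra* shares 91 with *4933431K23Rik* and *Edn1* shares 35 with *Gm47118*. The libraries were made with a kit that keeps strand, but the study's methods name no strand option. They mention default settings, under which featureCounts ignores strand. Reads of shared exons were repeated over transcripts, however, so the counting options are not fully known from the methods. The strand setting is thus unknown, and reads of the opposite strand may be included. Exons of the other 6 members overlapped no other annotated gene. The 9 genes lie on 8 chromosomes, with *Ednrb* and *Gfra2* both on chromosome 14.

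The endothelin axis as a whole comprised 10 genes, of which 6, or 60%, had a mean of at least 10, 2 had reads under that level and 2 were at 0. The GDNF family axis comprised 14 genes, with 11 (78.6%), 3 and 0 in these classes. Over all genes 56.9% had a mean of at least 10, so the share of the endothelin axis was close to that of all genes. The medians of the endothelin and GDNF family axes were 19.2 and 74.5 per kb, beside 28.2 over all genes of the table, those at 0 included. The second median lies between *Gdnf* and *Pspn*. It may be too high, since the levels per kb of *Pspn*, *Gfra4* and *Gas1* are. Transcripts for signalling within the cell were more abundant. Of 17 effectors of endothelin receptors, 16, or 94.1%, had a mean of at least 10, beside the 56.9% of all genes. The median of the list was 520 per kb. The highest were the G protein alpha subunit genes *Gnas* (15687 per kb), *Gnai2* (11350 per kb) and *Gna11* (3300 per kb), the last of which couples receptors to phospholipase C. *Plcb2*, a phospholipase of blood cells, was the gene of this list under 10, at a mean of 2.14, and was named after its value was seen. Of 18 adaptors of RET, 15, or 83.3%, had a mean of at least 10, with a median of 335 per kb. *Grb10* (5384 per kb), *Shc1* (4278 per kb) and *Dok1* (3968 per kb) led this list, and these adaptors also serve many other receptor kinases.

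**Figure D5:**
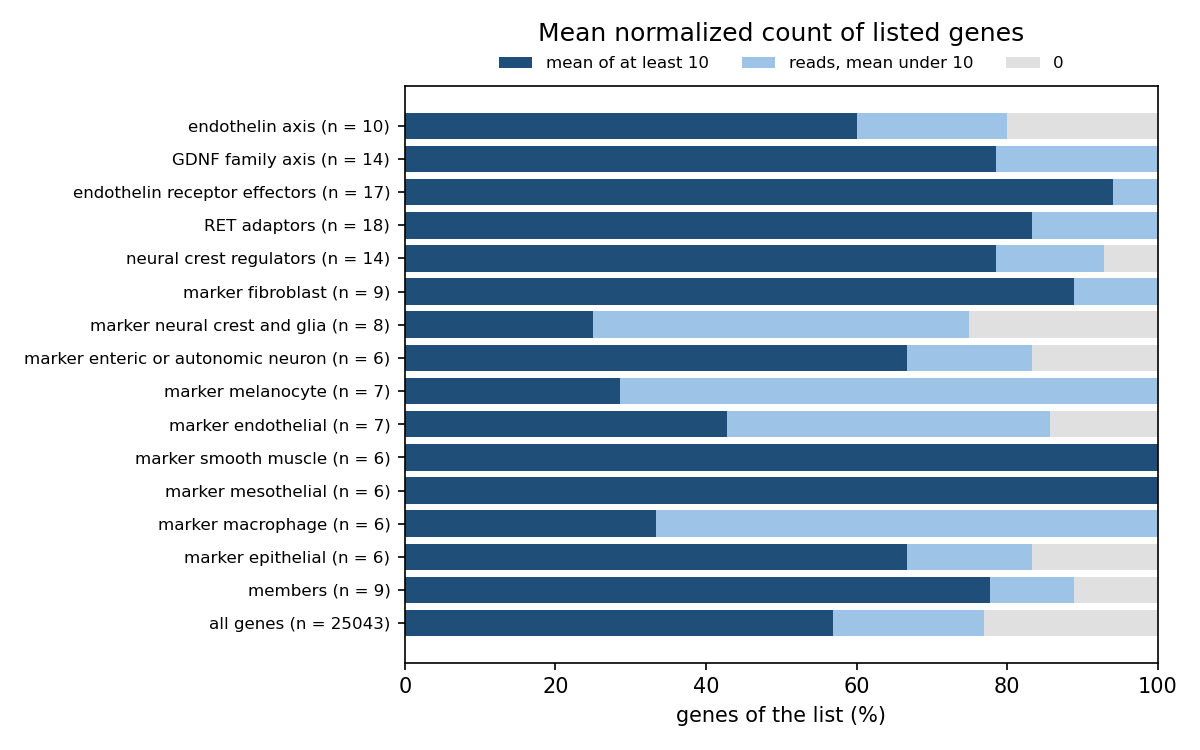
Share of the genes of each list (%) with a mean normalized count of at least 10 (dark), with reads but a mean under 10 (light) and at 0 (grey), with the number of genes in parentheses and all genes at the bottom. The neural crest and glia, melanocyte, endothelial and macrophage lists have 25% to 42.9% of their genes at that level, the enteric or autonomic neuron list and the epithelial list 66.7% each, and the other lists 60% or more.

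Of 14 transcription factors that regulate the neural crest, 11, or 78.6%, had a mean of at least 10, compared with 56.9% of all genes. Another 2 had fewer reads and 1 was at 0, and the median of the list was 80.8 per kb. *Snai1* (1262 per kb), *Twist1* (1203 per kb) and *Msx2* (733 per kb) were the highest, and all are also known from mesenchymal cells outside the crest. The factor at 0 was *Foxd3*, an early crest specifier, named after its value was seen. *Sox10*, which marks migrating crest and glia and acts upstream of *Ret* and *Ednrb* in enteric progenitors, had a mean of 8.22, or 48 reads in all.

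The labelled cell type was checked against markers. Their counts are given beside the 56.9% of all genes with a mean of at least 10. Of 9 fibroblast markers, 8, or 88.9%, had a mean of at least 10, with a summed mean of 479389. The most abundant gene of this list was *Vim* at 330695, followed per kb by *Fn1* and *Col1a2*. The small proteoglycan gene *Lum*, however, had a mean of 1.33 and *Dcn* one of 144, both named after their values were seen. All 6 smooth muscle markers reached a mean of 10 and summed to 593812, of which *Acta2* gave 415857, and were led per kb by *Acta2*, *Tagln* and *Cnn1*, genes that cultured fibroblasts also use when they become contractile. All 6 mesothelial markers reached it as well, summed to 9715, of which *Krt19* gave 7400, and were led per kb by *Krt19*, *Upk1b* and *Msln*.

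Markers of other cell types, among them those that classically receive endothelin 3 and GDNF, are given beside the 56.9% of all genes with a mean of at least 10. Of 8 neural crest and glia markers, 2, or 25%, had a mean of at least 10 (*Erbb3* at 97.2 and *S100b* at 26.6). A further 4 had fewer reads, and *Foxd3* and *Cdh19* were at 0. The summed mean was 141, mostly from *Erbb3*, although per kb *S100b* (17.9) was above *Erbb3* (16.2). Of 6 markers of enteric or autonomic neurons, 4, or 66.7%, reached a mean of 10, and *Dbh* was at 0. Their summed mean of 842 came mostly from the tubulin gene *Tubb3*, at 737, followed per kb by *Prph* and *Phox2a*. Of 7 melanocyte markers, 2, or 28.6%, reached it, *Mitf* at 198 and *Pmel* at 87.2, followed per kb by *Mlana*, and the sum was 294. Endothelial cells are a classical source of EDN1. Of 7 endothelial markers, 3, or 42.9%, reached a mean of 10 and the sum was 3056, of which *Kdr* alone gave 2958, while *Tek* and *Vwf* followed per kb, *Pecam1* had 4.47, *Cdh5* had 3.54 and *Emcn* was at 0. Of 6 macrophage markers, 2, or 33.3%, reached it with a sum of 303, of which *Cd68* gave 257, led per kb by *Cd68*, *Csf1r* and *Lyz2*, and *Ptprc* had 3.09. Of 6 epithelial markers, 4, or 66.7%, reached it with a sum of 1217, of which *Krt18* gave 1106, led per kb by *Krt18*, *Cdh1* and *Krt8*, and *Epcam* had 5.12. The part of other cell types in the levels of the 9 genes was not tested.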

How the data were processed

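RNA-Seq libraries of 3 WT and 3 *Anp32e* null MEFs were made with a stranded total RNA kit. Alignment to mm10 by the authors used STAR, reads per RefSeq transcript were taken with featureCounts of the Subread package, and DESeq2 was then run by the authors. The signal used here is the mean over the 6 libraries that the authors deposited, of counts divided by size factors. The other deposited columns hold the authors' own comparison of the genotypes (fold change, its error, statistic and p-values) and were not used. A count model on single libraries had been planned and was not run, since the values examined are pooled. Depth per library is known only as size factors recovered from steps of single reads, 0.909 to 1.13. Of 2931 transcripts with a mean above 0 and under 1, 100% were whole-read sums within 1e-10. For 12 genes (those of both axes with a mean under 50, and *Sox10*) the mean was resolved into reads, a step tested on simulated data.

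Of 42361 transcripts, 42203 were matched to a gene by RefSeq (GRCm38.p6). Lengths are those of the GENCODE vM21 transcripts paired with RefSeq accessions, for 35317 transcripts. All 4 *Gdnf* transcripts share the same paired length, as do NR_104342 and NM_010279 of *Gfra1*, and NM_001302094 and NM_008115 of *Gfra2*. Where the representative transcript had none, as for *Grb10*, the highest transcript with a length was used. Analysis was in Python 3.11.15 with pandas and scipy. The members and lists were chosen with earlier results of these data known. Of the listed genes, 2 that belong to neither axis are not reported here and were left out of the list counts. Named genes are the 9 members, all genes of both axes and the 3 highest per kb of each list, apart from those stated to be named after their values were seen and *Pecam1*, *Cdh5*, *Emcn*, *Ptprc*, *Epcam*, *Dbh* and *Cdh19*, for which the same holds.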

Additional observations from a re-analysis of the deposited data

How the results depend on the processing

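No paired analysis was possible because the values are means over all 6 libraries and come from no test. For the same reason the comparison of WT with *Anp32e* null was not run, nor were its alternatives (another normalization, no filter on low counts, leaving out a replicate). With a minimum mean of 50 or 1 in place of 10, 6 or 8 members passed in place of 7, and the endothelin axis gave 5 or 8 genes in place of 6, the GDNF family axis 8 or 12 in place of 11. All 9 members kept their place in the order without division by length. Taking the longest transcript moved the level of 1 member beyond its counting interval (*Ret*, to 80.9), the median over transcripts that of 1 (*Gdnf*, to 293), and the transcript with the highest level per kb those of 2 (*Gfra1* to 353 and *Gfra2* to 1.17 per kb). Percentiles depended on the reference set. Keeping X and Y genes changed none of 8 beyond counting error, while ranking by the mean moved all 8, *Edn1* from 60.6 to 55.5 and *Ece1* from 75.0 to 83.7. Ranking among genes with a mean of at least 10, to which *Gfra2* and *Edn3* do not belong, lowered the other 7 by construction, *Gdnf* from 44.3 to 25.8, *Ret* from 32.9 to 11.9 and *Ednra* from 26.4 to 4.98. With the longest annotated transcript of each gene, an alternative chosen after seeing the data, all 9 members kept their place, and of 18 ratios between axis genes 2 moved by over 1.5 times, *Gfra1* to *Gfra4* from 2.89 to 5.69 and *Gas1* to *Gfra1* from 3.40 to 1.33. Depth limits *Edn3*, *Gfra2*, *Gfra3* and *Gfral*, which rest on 10 reads or fewer.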

Other observations

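Reads of *Edn2* were present in some libraries and absent from others. The 54 reads (95% Poisson interval 40.6 to 70.5) were distributed as 0, 0, 15, 0, 16 and 23 over libraries 1 to 6, numbered by increasing step of a read, so that 3 libraries had none. For *Ednra*, the normalized counts in libraries 1 to 6 were 31.8, 34.2, 22.4, 34.4, 25.7 and 23.1. *Sox10* had 1, 1, 10, 14, 20 and 2 reads in the same libraries, and *Ecel1* had 4, 3, 6, 0, 9 and 1. In the same order of libraries, normalized counts were 10.6, 14.3, 21.4, 15.2, 22.4 and 37.4 for *Nrtn*, 36.3, 28.5, 46.7, 30.4, 57.7 and 68.2 for *Artn* and 17.7, 24.7, 47.7, 18.2, 26.7 and 44.0 for *Pspn*. The pooled means of these genes thus cover libraries at different levels. The labels do not say which library is which in these recovered values, and no test was made on them.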
